A study of Mus musculus with 8 samples.

Results

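Genes of the Wnt, BMP and TGF-beta, FGF, Hedgehog and Notch pathways were examined for changes in DNA hydroxymethylation after loss of OGT in mouse embryonic stem cells. The set holds 58 of the 21770 protein-coding genes that RefSeq places on the mouse chromosomes: 25 Wnt, 15 BMP/TGF-beta, 8 FGF and 10 Hedgehog/Notch genes. They were chosen by name, as ligands, receptors, intracellular transducers and transcription factors of these pathways, with earlier results of these data known. A differential region was assigned to a gene when its midpoint lay in the RefSeq span of the gene extended by 20 kb at both ends, here called the window. In all, 50 of the 12594 regions in the authors' 2 deposited lists lay in these windows, 33 in the list of regions with higher signal in the knockout and 17 in the list of regions with lower signal. No windows of 2 members overlapped, so each region was counted once.

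Hydroxymethylation was measured by CMS-IP, in which bisulfite turns 5-hydroxymethylcytosine (5hmC) into cytosine 5-methylenesulphonate and an antibody recovers the DNA that carries it. All cells carried floxed alleles of Ogt (Ogt fl/fl), the gene for O-GlcNAc transferase. Ogt iKO cells were grown with 4-hydroxytamoxifen (4-OHT) for 6 days and sorted as YFP-positive live stem cells, and control cells were grown without 4-OHT; each condition gave 2 CMS-IP libraries and 2 inputs. Exposure to 4-OHT and the YFP sort differ between the conditions together with the deletion, and their parts cannot be told apart. Both conditions were grown on feeder fibroblasts, which were removed by sorting. The lists give only a chromosome, a start and an end for each region, so the size of each change, its spread between replicates, the read depth and the state of Ogt or of stem cell markers in each library are unknown. Every count below describes these lists, and no test was made for a gene or a family.

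Wnt ligands bind Frizzled receptors and the co-receptors Lrp5 and Lrp6, which releases beta-catenin (Ctnnb1) from a destruction complex built on Axin, Apc and Gsk3b, so that it can act with the Tcf/Lef transcription factors. BMP and TGF-beta ligands act through paired serine/threonine kinase receptors that phosphorylate Smad proteins, and Smad6 and Smad7 inhibit this step. FGFs act through receptor tyrosine kinases, Hedgehog ligands relieve the inhibition of Smo by Ptch1 and so control the Gli factors, and Notch receptors are activated by Jagged and Delta ligands on neighbouring cells. In mouse embryonic stem cells, Wnt and BMP signals help to maintain self-renewal, while FGF signalling through ERK promotes exit from it. TET enzymes make 5hmC from 5-methylcytosine, which in mammals lies mostly at CpG dinucleotides, and CpG-rich promoters are usually unmethylated.

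No region of either list overlapped a promoter window of a signalling gene. These windows, which reach from 250 bases before to 50 after a RefSeq start (GRCm38.p6), were given for 42 of the 58 genes, some with several starts, making 60 windows. Across all protein-coding genes, 79 of 21262 such windows (0.372%) were overlapped by a region, so a count of 0 in 60 is near that background. The signalling windows were rich in CpG, with a median of 24 CpGs (interquartile range 15 to 34) against 13 (4 to 24) for all protein-coding windows. At least 1 CpG was found in 95.4% of all protein-coding windows. CpG medians were 24 for genes with a region in the window around them and 25 for genes without one. The sequences below show 5 of these starts, selected after the values were seen: Lef1, whose start had the nearest region of any member, Bmpr2, which had the nearest higher region, and Gsk3b, Tgfb2 and Gli3, which held the most regions among genes with a given start. Capitals mark each CpG (the letters CG, which read the same on both strands), and each sequence runs 5′ to 3′ on the strand of the gene.
Lef1: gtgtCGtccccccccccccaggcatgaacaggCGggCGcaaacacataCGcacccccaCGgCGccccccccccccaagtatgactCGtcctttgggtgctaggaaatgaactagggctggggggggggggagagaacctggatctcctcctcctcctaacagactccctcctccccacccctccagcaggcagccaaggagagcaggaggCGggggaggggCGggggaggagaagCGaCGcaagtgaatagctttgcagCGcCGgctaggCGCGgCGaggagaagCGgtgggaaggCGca
Bmpr2: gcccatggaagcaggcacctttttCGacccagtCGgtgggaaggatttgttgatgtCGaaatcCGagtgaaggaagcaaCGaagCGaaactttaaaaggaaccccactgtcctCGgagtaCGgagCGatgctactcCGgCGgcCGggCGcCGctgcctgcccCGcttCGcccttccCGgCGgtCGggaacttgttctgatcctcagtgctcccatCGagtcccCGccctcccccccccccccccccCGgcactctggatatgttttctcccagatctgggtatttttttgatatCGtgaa
Gsk3b: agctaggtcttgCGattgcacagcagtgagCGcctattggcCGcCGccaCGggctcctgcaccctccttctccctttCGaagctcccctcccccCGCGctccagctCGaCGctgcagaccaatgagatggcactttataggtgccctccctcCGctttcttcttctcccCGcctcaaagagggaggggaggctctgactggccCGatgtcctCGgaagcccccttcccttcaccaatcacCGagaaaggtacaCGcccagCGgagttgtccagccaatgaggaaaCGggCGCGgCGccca
Tgfb2: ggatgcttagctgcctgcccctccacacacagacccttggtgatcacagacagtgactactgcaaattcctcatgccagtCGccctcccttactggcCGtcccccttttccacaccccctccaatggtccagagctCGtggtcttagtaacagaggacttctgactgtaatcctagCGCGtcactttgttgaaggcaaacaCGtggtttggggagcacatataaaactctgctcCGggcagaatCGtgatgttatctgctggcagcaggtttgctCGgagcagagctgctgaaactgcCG
Gli3: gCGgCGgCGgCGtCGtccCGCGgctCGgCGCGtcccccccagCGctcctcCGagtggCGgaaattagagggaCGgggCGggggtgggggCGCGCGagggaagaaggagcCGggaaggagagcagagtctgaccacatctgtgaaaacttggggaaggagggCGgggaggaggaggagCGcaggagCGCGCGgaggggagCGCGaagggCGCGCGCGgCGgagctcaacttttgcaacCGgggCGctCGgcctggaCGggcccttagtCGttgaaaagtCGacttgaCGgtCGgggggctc
The Lef1 window (chr3:131110047-131110346, plus strand) holds 18 CpGs, the Bmpr2 window (chr1:59764029-59764328, plus) 23, the Gsk3b window (chr16:38088751-38089050, plus) 21, the Tgfb2 window (chr1:186705940-186706239, minus) 10 and the Gli3 window (chr13:15463473-15463772, plus) 39. A lower region ended 566 bp before the Lef1 window, and a higher region ended 2268 bp before that of Bmpr2. The nearest regions of either list to the other windows were higher and lay 16060 bp (Gsk3b), 26032 bp (Tgfb2) and 36145 bp (Gli3) away, and that of Gli3 was outside the 20 kb limit and so not assigned to the gene.

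At least 1 region was found at 31 of the 58 genes (53.4%), against 36.2% of all protein-coding genes. Higher regions were found at 23 genes (39.7%, against 26.4% of all protein-coding genes) and lower regions at 16 (27.6%, against 16.1%). Both directions occurred at 8 genes, while 15 had higher and 8 had lower regions only; 6.35% of all protein-coding genes had both. At least 2 regions lay at 13 genes, and 12.4% of all protein-coding genes had as many. The shares with any, a higher or a lower region were read against gene length. The signalling genes are long, with a median span of 46.9 kb against 17.2 kb. For both directions and for at least 2 regions, no share among genes of similar length is given here. Among the 200 other protein-coding genes nearest in length to each member (nearest-length genes), 48.4% had a region, which corresponds to 28.0 of 58 genes. The corresponding numbers were 21.7 genes with a higher and 12.7 with a lower region, and 49.9 regions in all, against the 50 found. The number of regions at these genes was thus close to that at genes of their length when all were pooled. The total combines differences in both directions. The long genes Fgf12 and Fgf14 together held 2 regions against 6.15, and the other FGF genes 4 against 3.91. Wnt genes held 17 against 16.85, BMP/TGF-beta genes 16 against 14.0 and Hedgehog/Notch genes 11 against 8.94.

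**Figure D1:**
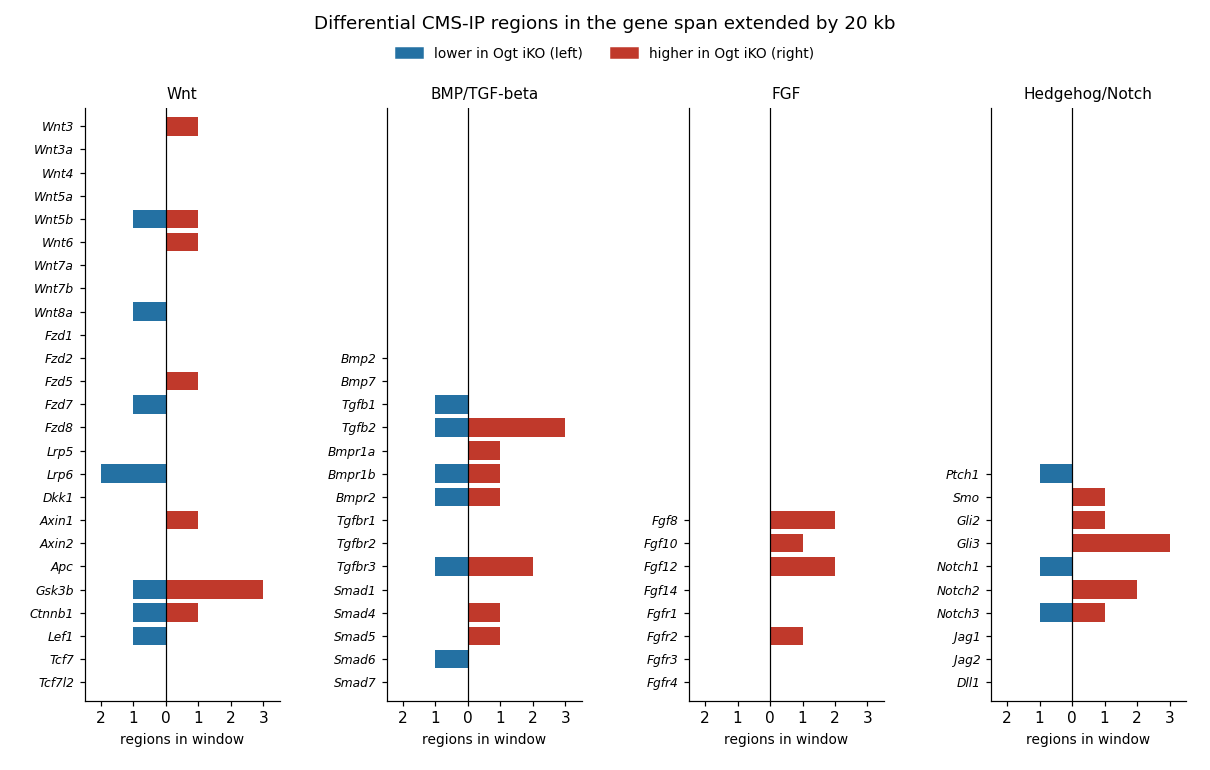
Number of differential CMS-IP regions in the window of each of the 58 signalling genes (gene span extended by 20 kb at both ends), with higher regions to the right and lower regions to the left of 0. Gsk3b and Tgfb2 hold 3 higher and 1 lower region each, Gli3 holds 3 higher regions, and 27 genes hold none.

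Genes with a region were longer than genes without one. Genes with a region had a median span of 69.0 kb and genes without one 35.1 kb. Of 16 members over 100 kb, 12 had a region (75.0%), and 71.6% of all protein-coding genes of that length did. Between 50 and 100 kb the counts were 7 of 12 (58.3%, against 55.5%), and between 10 and 50 kb they were 8 of 21 (38.1%, against 35.4%). Under 10 kb, 4 of 9 members had a region (44.4%, against 19.9%). These 4 short genes were Wnt8a, Fzd5, Fzd7 and Fgf8, and all their regions but that of Fzd7 lay in the flanks. For Fzd5 and Fgf8, a flank region lay inside a neighbouring gene, Ccnyl1 and Oga respectively.

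**Figure D2:**
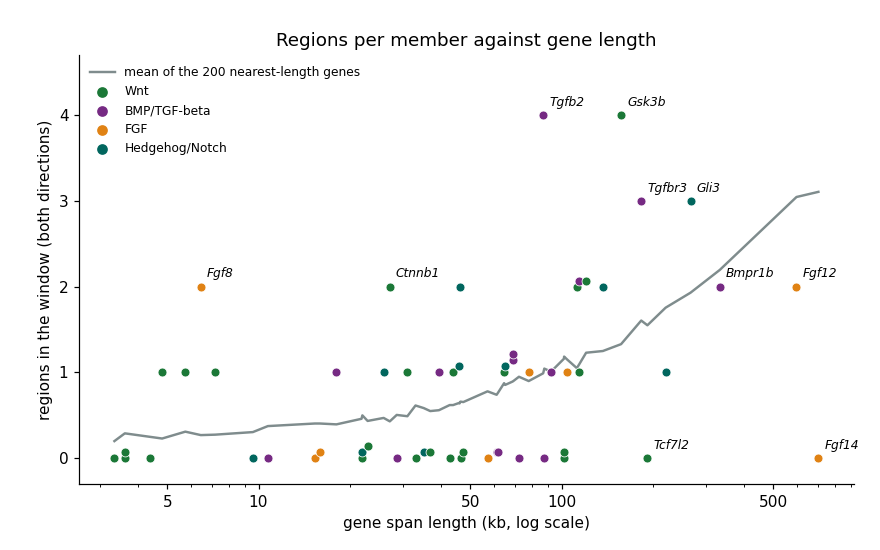
Regions in the window of each gene (both directions, points coloured by pathway) against the length of its span on a log axis, with the mean number over its 200 nearest-length genes as a line; points of near-equal position are shifted upward slightly. Gsk3b and Tgfb2, the members with most regions, stand at 4 above means of 1.33 and 0.990, and Fgf14, the longest member at 703 kb, stands at 0 below a mean of 3.11.

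Wnt genes held higher and lower regions in near-equal number and FGF genes only higher ones, on counts too small to tell the families apart. Higher regions made up 9 of 17 in Wnt windows (52.9%, exact 95% binomial interval 27.8 to 77.0%), 10 of 16 in BMP/TGF-beta windows (62.5%, 35.4 to 84.8%), 6 of 6 in FGF windows (100%, 54.1 to 100%) and 8 of 11 in Hedgehog/Notch windows (72.7%, 39.0 to 94.0%). These intervals cover counting error only and treat regions as independent. Over all members, 66.0% of the regions were higher (51.2 to 78.8%), against 68.1% of all regions in the lists, and each family's interval includes that share. Genes with a region made up 11 of 25 Wnt (44.0%), 9 of 15 BMP/TGF-beta (60.0%), 4 of 8 FGF (50.0%) and 7 of 10 Hedgehog/Notch genes (70.0%). For their nearest-length genes the shares were 43.3%, 53.1%, 52.2% and 50.7%.

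**Figure D3:**
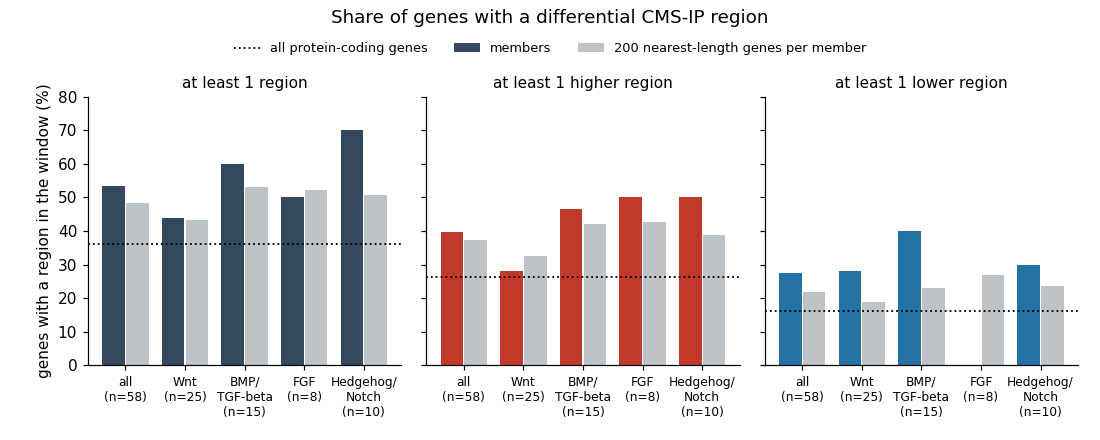
Percentage of genes with at least 1 region, 1 higher region or 1 lower region in the window, for all members and by pathway (coloured bars), beside the mean percentage over the 200 nearest-length genes of each member (grey bars) and the percentage over all protein-coding genes (dotted line). No FGF gene had a lower region, while 40.0% of BMP/TGF-beta genes had one, against 23.0% of their nearest-length genes.

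Among the 9 Wnt ligand genes, 4 held a region, and 3.70 would correspond to genes of their length. Wnt5b, a ligand best known for signalling independent of beta-catenin, held the only regions of both directions in this class. Its lower region of 1483 bp (chr6:119470516-119471998) was the widest lower region at any member and lay inside the gene, 4.05 kb upstream of the nearest of 3 listed starts. The higher region of 518 bp (chr6:119534296-119534813) lay 9.79 kb downstream of the first start, and 62.3 kb separated it from the lower one. Wnt3, a ligand of the beta-catenin pathway that is needed for the primitive streak, held a higher region of 200 bp (chr11:103783920-103784119), the smallest width in the lists, 9.84 kb downstream of its start. A higher region of 214 bp lay 0.534 kb outside the lower-coordinate end of Wnt6, 18.1 kb upstream of its listed start. A lower region of 416 bp lay 1.35 kb outside Wnt8a, whose strand was not used here. Wnt3a, Wnt4, Wnt5a, Wnt7a and Wnt7b had no region in the window.

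Of the 7 Wnt receptor genes of the set 3 held a region, against 2.38 for genes of their length. Of their 4 regions 1 was higher, a share whose exact 95% binomial interval of 0.631 to 80.6% includes the 68.1% of the lists, and 2 of the 3 lower ones were at Lrp6. Among the further Frizzled genes described below, Fzd3 held 2 and Fzd6 3 regions, all higher, and Fzd4, Fzd9 and Fzd10 held none. Lrp6, a co-receptor of Frizzled, held 2 lower regions and no higher one. They measured 326 bp (chr6:134459522-134459847) and 312 bp (chr6:134489770-134490081), lay inside the gene and were 29.9 kb apart. Its nearest-length genes held 1.23 regions on average, and 64.5% of them had any. The related co-receptor gene Lrp5, at 102 kb similar in length to the 120 kb of Lrp6, had none, with the nearest region 33.0 kb away and higher. At Fzd7, a Frizzled receptor, a lower region of 924 bp overlapped the far end of the span, 4.54 kb downstream of the start. Fzd5 had a higher region of 211 bp (chr1:64719581-64719791) in its flank, 10.9 kb outside the span and inside Ccnyl1. Fzd1, Fzd2, Fzd8 and the secreted inhibitor gene Dkk1 had no region within at least 100 kb, and all are under 5 kb long.

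The destruction complex held 5 of the 17 Wnt regions, and 4 of these were at Gsk3b, which encodes a kinase that marks beta-catenin for degradation. All 4 lay inside the 157 kb gene and held both directions. Starting 16.6 kb downstream of the start, a higher region of 894 bp (chr16:38105110-38106003) was followed by a lower region of 632 bp (chr16:38135188-38135819). Then came higher regions of 599 bp (chr16:38156493-38157091) and 1206 bp (chr16:38218942-38220147). The genes nearest to Gsk3b in length held 1.33 regions on average. Its 4 regions were, with those of Tgfb2, the most of any member, and the share of nearest-length genes with as many is not given here. Axin1, the scaffold of the complex, held a single higher region of 2100 bp (chr17:26191410-26193509) inside the gene, 3.35 kb from its higher-coordinate end. This was the widest higher region of the Wnt family. Axin2, a scaffold that is itself a Wnt target gene, and Apc, which binds beta-catenin, had none, and their nearest regions were higher and lay 52.2 and 96.8 kb away.

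At Ctnnb1, the gene of beta-catenin, both directions lay close together but outside the gene. A higher region of 503 bp (chr9:120975857-120976359) and a lower region of 486 bp (chr9:120979586-120980071) were 3.23 kb apart, 15.6 and 19.3 kb beyond the higher-coordinate end and inside the neighbouring gene Ulk4. The lower region was the outermost of all regions assigned to a member. The nearest regions beyond the 20 kb limit lay 26.1 kb from Wnt4 and 26.5 kb from Wnt3a, and both were higher. Of the 3 Tcf/Lef genes, Lef1 alone had a region, against 1.77 of 3 for genes of their length. It was lower, 236 bp wide (chr3:131109246-131109481), and its midpoint lay 0.934 kb upstream of the start shown above. It was the only region within 1 kb of a listed start of a member, 1 of 40 regions at genes with a listed start (2.50%), and the share over such pairs at other protein-coding genes was 2.21%. Tcf7 had no region within 75.9 kb. Tcf7l2, 192 kb long, had none within 115 kb, although 71.0% of its nearest-length genes had one.

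Regions of both directions were found at 4 of the 15 BMP/TGF-beta genes, and at 6.35% of all protein-coding genes. The latter are shorter, with a median span of 17.2 kb against 69.0 kb, and no share among genes of similar length is given here. Of the 40 further BMP/TGF-beta genes described below, 5.00% had both directions, against 8.04% of their nearest-length genes. Tgfb2, which encodes a TGF-beta ligand, held 4 regions, with Gsk3b the most of any member. Genes of its length held 0.990 on average, and the share of them with 4 or more is not given here. The 2 regions inside Tgfb2 were higher, 1306 bp (chr1:186663091-186664396) and 454 bp (chr1:186679455-186679908) wide, and lay 42.2 and 26.3 kb downstream of the start. Beyond the far end of the gene lay a lower region of 296 bp (chr1:186620015-186620310) and, 14.4 kb further, a higher region of 341 bp (chr1:186605273-186605613). Tgfb1, another ligand of the same receptors, held a lower region of 683 bp (chr7:25703722-25704404) 1.01 kb inside its far end. Bmp2 and Bmp7, ligands that act through Smad1 and Smad5, had none, and the nearest regions were higher, 66.9 and 83.8 kb away.

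Of the 6 BMP and TGF-beta receptor genes, 4 held a region, against 3.83 for genes of their length. Bmpr2, the type II BMP receptor gene, had a wide higher region of 2018 bp (chr1:59759744-59761761) with its midpoint 3.53 kb upstream of the start shown above, the widest higher region of the family. A lower region of 229 bp (chr1:59803997-59804225), the narrowest lower region at any member, lay 39.8 kb downstream of the start. Tgfbr3, the co-receptor betaglycan, held a lower region of 814 bp (chr5:107128788-107129601), the widest lower region of the family, and a higher region of 608 bp (chr5:107198044-107198651) inside the gene. A further higher region of 316 bp (chr5:107104645-107104960) lay 1.77 kb outside it. Bmpr1b, a type I BMP receptor gene of 332 kb, held a lower region of 321 bp (chr3:141847582-141847902) and a higher region of 688 bp (chr3:141950317-141951004), 102 kb apart. Bmpr1a, its paralog, had a higher region of 277 bp in the flank, inside the gene model 9230112D13Rik. Tgfbr1 and Tgfbr2, the kinase receptors of TGF-beta, had none in their windows, and the nearest lay 32.4 kb from Tgfbr1 (higher) and 64.6 kb from Tgfbr2 (lower).

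Smad genes had at most 1 region each. At the genes for the common mediator Smad4 and the BMP-activated Smad5, the regions were higher, 322 bp (chr18:73631418-73631739) and 1051 bp (chr13:56747954-56749004) wide, and both lay outside the gene, by 3.21 and 6.10 kb. At Smad6, an inhibitor of the pathway, the region was lower, 778 bp wide (chr9:63953226-63954003), and lay 0.538 kb inside the far end of the gene. Smad1 and Smad7 had none, with the nearest regions 30.0 and 148 kb away. Among the further pathway genes described below, Smad3 held 2 lower regions, Smad9 2 higher regions and Smad2 1 higher region.

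**Figure D4:**
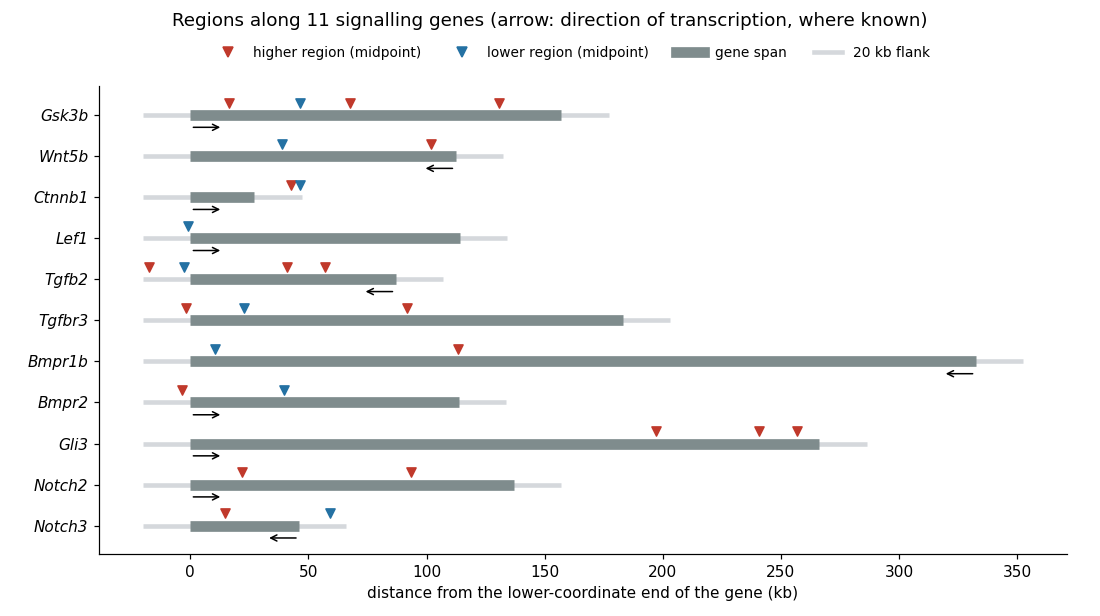
Midpoints of higher and lower regions (triangles) along 11 signalling genes, as distance in kb from the lower-coordinate end of the gene, with the span in dark grey, the 20 kb flanks in light grey and an arrow for the direction of transcription where it was given. Both directions occur along Gsk3b and Tgfb2, all 3 regions of Gli3 lie in the last part of the gene, and the lower region of Lef1 lies just before its start.

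All 6 regions in FGF windows were higher. Genes of the same lengths had a lower region in 26.8% of cases, which corresponds to 2.15 of 8 genes. Without the long genes Fgf12 and Fgf14 it was 17.5%, or 1.05 of 6 genes. Fgf8, a secreted ligand of gastrulation, had 2 higher regions in its flanks, of 572 bp (chr19:45723334-45723905) and 6200 bp (chr19:45750471-45756670). The second, the widest region at any member, lay inside the neighbouring gene Oga, which encodes the enzyme that removes O-GlcNAc. Fgf10, a ligand of epithelial outgrowth, held a higher region of 601 bp (chr13:118732146-118732746) 17.7 kb downstream of its start. Of the 4 receptor genes only Fgfr2 had a region, a higher one of 305 bp (chr7:130154577-130154881) 7.72 kb beyond the far end of the gene, while 1.80 of 4 would correspond to genes of their length. Fgfr1, Fgfr3 and Fgfr4 had none, with the nearest regions 101, 67.2 and 48.5 kb away.

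Fgf12 and Fgf14 encode FGF homologous factors, which stay inside the cell and bind sodium channels. They are the longest members, at 595 and 703 kb. Fgf12 held 2 higher regions, of 294 bp (chr16:28207045-28207338) and 771 bp (chr16:28509618-28510388), where genes of its length held 3.05 on average. Fgf14 held none, and the nearest, a lower region, was 276 kb outside its span; 79.0% of its nearest-length genes had a region. FGF windows held 0.317 regions per 100 kb, against 0.723 in Wnt, 0.831 in BMP/TGF-beta and 0.864 in Hedgehog/Notch windows. With these 2 genes left out, the value for the FGF ligands and receptors was 0.774 per 100 kb.

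All 4 Hedgehog genes held a region, where 2.47 would correspond to genes of their length. At the genes of the Gli transcription factors all 4 regions were higher. Gli3, which acts mainly as a repressor, held 3 of them, of 734 bp (chr13:15660687-15661420), 933 bp (chr13:15704125-15705057) and 688 bp (chr13:15720083-15720770). They lay 197, 241 and 257 kb downstream of the start of a 266 kb gene, 42.7 and 15.0 kb apart, and genes of this length held 1.93 regions on average. Gli2, the main activator, held a higher region of 577 bp (chr1:118929068-118929644) inside its 220 kb span. Gli1, among the further pathway genes described below, had no region in its window. Smo, the signal transducer, held a higher region of 200 bp (chr6:29739241-29739440) 3.84 kb downstream of its start. Ptch1, the receptor that inhibits Smo, had a lower region of 425 bp (chr13:63591189-63591613) in the flank, 25.7 kb upstream of the nearest listed start.

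The 3 Notch receptor genes of the set each held a region and its 3 ligand genes held none. Genes of the same lengths would correspond to 1.55 of 3 and 1.06 of 3. This contrast did not extend to the further pathway genes described below. There the receptor gene Notch4 had no region, and the ligand genes Dll3 and Dll4 had 1 higher and 1 lower region each. Notch2 held 2 higher regions of 1083 bp (chr3:98034901-98035983) and 422 bp (chr3:98106900-98107321) inside the gene, 70.9 kb apart, and the first was the widest region of the Hedgehog/Notch family. Notch3 held a higher region of 621 bp (chr17:32135394-32136014) inside the gene and a lower region of 336 bp (chr17:32180000-32180335) 13.3 kb upstream of the start. Notch1 held a lower region of 315 bp, 20.5 kb downstream of its start. Among the ligand genes of the set, the nearest region lay 49.3 kb from Jag2, 55.9 kb from Dll1 and 570 kb from Jag1, the farthest of any member, and all 3 were higher.

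Regions lay inside the gene in 32 of 50 cases (64.0%, exact 95% binomial interval 49.2 to 77.1%), and in the flanks in 18. At the nearest-length genes, weighted by the regions of each member, the share was 65.9%. For higher regions it was 63.6% at members against 68.7%, and for lower regions 64.7% against 60.1%. Of the flank regions, 5 lay inside another protein-coding gene, at Fzd5, Ctnnb1 (2), Bmpr1a and Fgf8. Within 1 kb of an end of the span lay 4 regions, 3 of them lower (Fzd7, Lef1 and Smad6) and 1 higher (Wnt6). That is 17.6% of lower and 3.03% of higher regions at members, against 6.09% and 3.63% at other protein-coding genes of all lengths. At Fzd7 and Smad6, as at Tgfb1 just beyond this limit, the lower region was at the end away from the listed start. The median distance to the nearest listed start was 42.2 kb for higher regions (27 with a listed start) and 25.7 kb for lower regions (13), and 24.0 and 18.0 kb at other protein-coding genes, which are shorter and were not matched in length here.

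Where a window held several regions, 8 of 19 adjacent pairs shared a direction (42.1%) and 11 did not. In windows of other protein-coding genes, 60.7% of 4521 adjacent pairs shared it, and whether the 19 pairs differ from that was not tested. Their gaps ranged from 3.23 kb at Ctnnb1 to 302 kb at Fgf12, with a median of 42.2 kb, and only the Ctnnb1 pair was closer than 10 kb.

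Higher regions at the signalling genes had a median width of 599 bp (interquartile range 322 to 894 bp, 33 regions) and lower regions 416 bp (315 to 683 bp, 17 regions). Over the whole lists the medians were 541.5 and 319.5 bp. Widths of 1 kb or more were found for 7 higher regions (21.2%, against 23.5% of the higher list) and for 1 lower region (5.88%, against 10.5% of the lower list). The 7 were at Axin1, Gsk3b, Tgfb2, Bmpr2, Smad5, Fgf8 and Notch2, and the lower one was at Wnt5b. Higher regions covered 27.8 kb and lower regions 9.01 kb of the windows, and the region shared with Oga made up 6200 bp of the former.

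**Figure D5:**
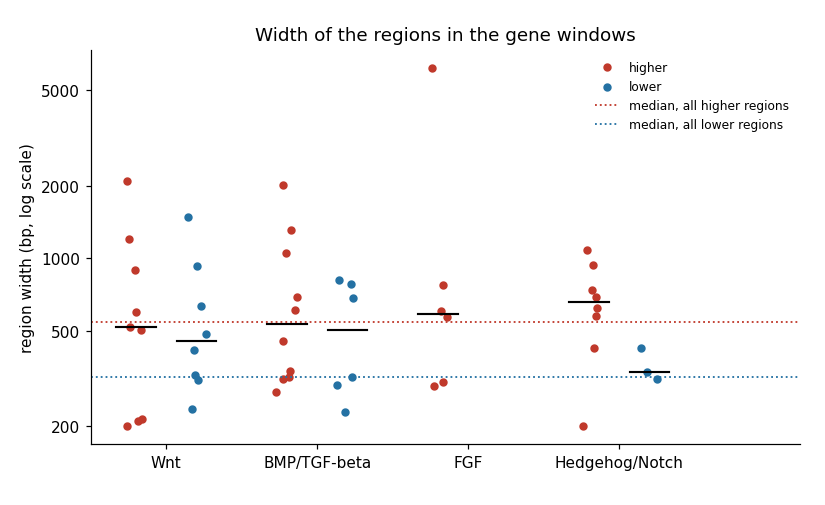
Width in bp (log axis) of each higher and lower region by pathway, with the median of each group as a black line and the medians of the whole lists as dotted lines. Most regions lie between 200 and 1000 bp, and the 6200 bp region in the Fgf8 window, which lies inside Oga, stands above all others.

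The 27 genes without a region had their nearest region between 26.1 and 570 kb from the span, with a median of 67.2 kb. It was higher for 20 and lower for 7. For 8 of them it lay within 50 kb and for 10 beyond 100 kb. With the threshold and depth behind the lists unknown, 5hmC at these 27 genes may have changed by less than the lists could register.

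Other genes of the same pathways, 176 from a list written from textbook membership, held regions as often as genes of their length: 70 of 176 (39.8%), against 41.0%. A region was found at 27 of 61 further Wnt genes (44.3%, against 42.9%), 17 of 40 BMP/TGF-beta genes (42.5%, against 41.9%), 9 of 35 FGF genes (25.7%, against 38.1%) and 17 of 40 Hedgehog/Notch genes (42.5%, against 39.8%). Higher regions occurred at 56 (31.8%), lower at 28 (15.9%) and both at 14 (7.95%) of the 176, against 30.1%, 18.4% and 7.54% of their nearest-length genes. The genes with the highest counts of the Wnt list were Btrc (3 higher, 1 lower), the ubiquitin ligase subunit that recognises phosphorylated beta-catenin, Lgr4 (2 and 2), an R-spondin receptor, and Bcl9l (3 and 0), a beta-catenin cofactor, which tied at 3 regions with Fzd6 (3 and 0) and Znrf3 (1 and 2). In the BMP/TGF-beta family they were Bmp5 (4 and 0), a ligand, and Ltbp1 (2 and 1) and Ltbp2 (1 and 2), of the latent TGF-beta binding protein family. In the FGF family they were Sos1 (4 and 0), which activates Ras downstream of the receptors, and the ligand genes Fgf2 (2 and 0) and Fgf20 (1 and 1). In the Hedgehog/Notch family they were Maml3 (4 and 2), a Notch coactivator, and Rbpj (0 and 3), the DNA-binding factor of the pathway. Of these 11 genes, Rbpj alone had lower regions only, 3 in a window of a 102 kb gene, and its nearest-length genes held 1.18 regions on average. The FGF genes of this list held 2 lower regions, beside 12 higher. A lower region was found at 5.71% of these 35 genes, against 17.4% of their nearest-length genes. Whether lower regions are scarcer at FGF genes was not tested.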

How the data were processed

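CMS-IP signal was compared between 2 Ogt iKO and 2 control libraries by the authors, who deposited 2 lists of regions on mm10, named for higher and for lower signal. Bismark and MACS2 are named in the submitters' processing notes, without versions. The differential test, its threshold and the use of inputs, spike-ins and replicates are not given in the sources used here. The lists hold positions only, so depth per sample is unknown. The knockout is spelled with 1 more letter in the list names than in the labels, and both were taken to mean the same cells.

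Region starts in the lists were taken to count from 0, and those printed here count from 1. A RefSeq table of GRCm38.p6 gave the gene spans; 49591 of 49997 genes were kept and the others, on scaffolds, patches, the mitochondrial genome or without a position, left out. All 58 members were matched by symbol, as were 176 of 177 further pathway genes; the table places the other, Spry3, on a scaffold. Promoter sequences are from RefSeq (GRCm38.p6). For each member, the 200 non-member protein-coding genes nearest in log span length gave its nearest-length values, as a description. Exact binomial (Clopper-Pearson) intervals at 95% cover counting error only. The members and lists were chosen with earlier results of these data known. Coordinates were printed for the regions of the 2 members with most regions in each role class (ties in alphabetical order), of members with both directions or a region within 1 kb of a start, and for the widest regions of each family; further pathway genes were the 3 with most regions per family, of which 1 is not reported here. Python 3.11.15, numpy 2.4.6, scipy 1.17.1, pandas 2.3.3 and matplotlib 3.10.9 were used. Window counts were tested on simulated regions placed in the windows of 200 protein-coding genes. Of 2000 randomly drawn genes, most of them without such a region, 0 differed from a direct search.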

Additional observations from a re-analysis of the deposited data

How the results depend on the processing

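Of 59 recomputed values over 11 results, 46 stayed within 1.5 times the count or within the stated interval, and 13 moved. Reversals were not scored. Merging regions of a list within 10 kb or counting any overlap of 1 bp changed no count, since no same-list neighbours at members lie that close and no region straddles a window's edge. Without flanks, 20 genes had a region, 14 a higher and 10 a lower one, and Wnt, BMP/TGF-beta and FGF genes held 11, 9 and 3 regions. With 5 kb flanks, FGF genes held 3 regions, and with 50 kb flanks Wnt genes held 26. With regions of at least 453 bp, the median width of both lists, 19 genes had a region and 7 a lower one, and Wnt, BMP/TGF-beta and Hedgehog/Notch windows held 10, 9 and 6 regions. Each of these moves came with smaller or larger windows or with fewer regions. Expected numbers by family or by direction were not computed for these settings. The number expected from nearest-length genes moved alike: 19.7 genes without flanks (20 found), 36.8 with 50 kb flanks (39 found) and 18.3 with the wider regions (19 found). Under other choices of nearest-length genes, it stayed between 27.6 and 29.7 of 58. The share of higher regions stayed between 64.1% and 75.9%. Leaving out Gsk3b, or Tgfb2 (chosen after seeing the data), gave 65.2% each.

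No paired analysis was possible because the 2 lists carry positions alone and no library's signal. Leaving out a replicate was not run for lack of the same values.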
